A study of Mus musculus with 6 samples.

Results

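The interferon regulatory factor (IRF) genes Irf1, Irf2, Irf3, Irf4, Irf5, Irf7, Irf8 and Irf9 were examined for chromatin accessibility in mouse leukaemic progenitors with and without C/EBPα and C/EBPβ, a pair of myeloid transcription factors. These 8 genes, of 21951 protein-coding genes in the annotation, were taken by name, with no threshold on their values, and are not the whole family. A region was assigned to a gene when it overlapped the gene body extended by 75 kb on each side. By this rule 9 of 10016 listed regions lay at 4 of the genes: 1 at Irf1, 5 at Irf2, 1 at Irf7 and 2 at Irf8. Irf3, Irf4, Irf5 and Irf9 had no listed region. The 4 of 8 genes with a region were near the 56.2% of all protein-coding genes that had one in a window of this kind.

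Accessibility was measured by ATAC-seq, in which the Tn5 transposase cuts open DNA and leaves sequencing adapters there, and read number rises with how open a region is. All cells came from mouse fetal liver, had been transformed with MLL-ENL, a leukaemic fusion gene, and were grown with interleukin 3. There were 6 libraries in 3 groups of 2, each made from sorted cells. The values used here cover WT and dKO, so 4 libraries stand behind each comparison. WT cells kept Cebpa and Cebpb and their labels name no vector, whereas dKO cells were knocked out for both genes and carried GFP. The vector therefore cannot be told apart from the genotype. The dKO lines were clones that grew out after deletion of both genes, and per the study's account such clones were rare and expressed another family member, C/EBPε. The third group, dKO-LAP*, which carried rat LAP* (an isoform of C/EBPβ) on the dKO background, was not analysed here.

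Each region was given as the log2 mean of normalised reads in WT and in dKO, with no value per library. No standard deviation, interval or test over libraries could be formed, and nothing says that the 2 replicates of a group were separate cultures. The read depth of each library was not part of the table. A level of 3 reads per library, the limit that a count of 0 allows, corresponded to a log2 level of 1.43 in both groups and covers counting error only. The table listed regions past the authors' corrected p cutoff of 0.05 and no others. A gene without a region thus had no listed change, which does not show that its chromatin was the same in both groups. Cebpa and Cebpb check the labels. A listed region at Cebpa had a log2 level of 9.99 in WT and of -0.15 in dKO. It was at least 377-fold lower and below the limit in dKO, where the DNA itself had been deleted. In the body of Cebpb, 1 region went from 7.38 to -0.15, below the limit, and 1 from 8.60 to 3.37, above it. The other 4 regions within 75 kb of these 2 genes were higher in dKO.

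Interferon regulatory factors are transcription factors that bind repeated GAAA sequences in the regulatory regions of interferons and of interferon-stimulated genes. Irf3 and Irf7 are activated by kinases downstream of viral sensors and switch on interferon genes, Irf9 acts in the response to type I interferon, and Irf1 and Irf2 act on shared sites as activator and mostly as repressor. Irf8 and its relative Irf4 bind weakly alone and act with partners such as PU.1 on composite ETS-IRF elements. Irf8 is required for the monocyte and dendritic cell lineages and restrains granulocyte output, and its loss in mice gives a disease like chronic myeloid leukaemia.

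The sequences below are those on which the comparison turned: the promoter of Irf8, its upstream element, 3 of the elements at Irf2 and the single element with lower accessibility. They were read from the mouse genome build mm10 (GRCm38.p6), 5′ to 3′, on the strand of the gene named. Apart from the promoter, each is the central 200 bases of a listed region. Capitals mark matches, on either strand, to TTACNNAA or TTGCNNAA (C/EBP), TGACTCA or TGAGTCA (AP-1), GAGGAAGT (PU.1), AACCACA (RUNX), GAAANNGAA (the core of an interferon-stimulated response element, ISRE), GGAANNGAA (ETS-IRF composite) and TTCNNNGAA (GAS, the element bound by STAT factors). None of the printed matches overlapped another.
Irf8 promoter, the 250 bases before the annotated start, chr8:120736108-120736357, + strand, 2 GAS matches: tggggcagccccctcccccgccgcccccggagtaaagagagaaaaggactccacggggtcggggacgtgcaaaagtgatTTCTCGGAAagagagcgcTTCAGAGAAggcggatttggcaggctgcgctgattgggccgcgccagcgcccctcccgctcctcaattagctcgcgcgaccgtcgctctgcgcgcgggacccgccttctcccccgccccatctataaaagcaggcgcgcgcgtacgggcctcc
Irf8, 50.2 kb upstream, chr8:120686058-120686257, + strand, C/EBP match: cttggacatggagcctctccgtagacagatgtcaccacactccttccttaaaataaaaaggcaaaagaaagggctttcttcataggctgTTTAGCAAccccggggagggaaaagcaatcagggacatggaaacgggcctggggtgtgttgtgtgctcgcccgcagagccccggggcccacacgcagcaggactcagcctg
Irf2, 42.0 kb upstream, chr8:46697661-46697860, + strand, C/EBP then AP-1 match: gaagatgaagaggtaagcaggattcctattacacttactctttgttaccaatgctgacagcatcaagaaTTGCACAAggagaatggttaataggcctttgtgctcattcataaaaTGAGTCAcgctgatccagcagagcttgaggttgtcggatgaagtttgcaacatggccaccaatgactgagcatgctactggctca
Irf2, 53.1 kb downstream of its start, chr8:46792762-46792961, + strand, ETS-IRF composite then PU.1 match: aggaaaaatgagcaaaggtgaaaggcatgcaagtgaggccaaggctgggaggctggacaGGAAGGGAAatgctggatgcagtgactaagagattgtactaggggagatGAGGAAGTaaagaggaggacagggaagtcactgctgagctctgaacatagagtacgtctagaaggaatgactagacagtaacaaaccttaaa
Irf2, 103.1 kb downstream of its start, chr8:46842753-46842952, + strand, AP-1 then ISRE core match: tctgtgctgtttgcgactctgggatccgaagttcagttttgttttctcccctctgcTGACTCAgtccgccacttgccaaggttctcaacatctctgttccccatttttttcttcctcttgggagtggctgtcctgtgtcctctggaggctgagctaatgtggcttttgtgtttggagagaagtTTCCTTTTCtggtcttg
Irf7, 49.7 kb upstream, chr7:141316042-141316241, − strand, no match: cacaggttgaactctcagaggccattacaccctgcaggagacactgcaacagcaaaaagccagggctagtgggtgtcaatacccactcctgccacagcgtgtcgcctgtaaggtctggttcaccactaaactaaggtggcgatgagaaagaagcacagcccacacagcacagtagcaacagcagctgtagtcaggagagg

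Of the 9 regions, 8 were more accessible in dKO and 1 was less accessible, whereas 60.3% of all listed regions were higher in dKO. With the median difference of all listed regions subtracted, 7 of the 9 were higher and 2 lower. That median comes only from regions past the authors' cutoff, none of which lay between -0.51 and 0.49. It follows the share of higher regions and need not be a shift common to all chromatin. A difference of at least 2-fold was present at 7 regions in the upward direction and at 1 in the downward direction. Among all listed regions, 49.6% were at least 2-fold higher and 35.9% at least 2-fold lower. The median difference over the 9 regions was 2.00 on the log2 scale, against 0.98 over all listed regions and 1.58 over those that were higher. Levels at the 9 regions ran from 1.54 to 7.39 in WT, with a median of 3.51, and from 3.71 to 8.23 in dKO, with a median of 5.64. The corresponding medians over all listed regions were 5.31 in WT and 5.59 in dKO. The median of the 9 was thus below that of all listed regions in WT and near it in dKO, although 3 of the 9 exceeded the WT median of all listed regions. All 9 lay above the limit of 3 reads per library in both groups. With 9 regions, of which 5 belonged to 1 gene, these shares describe the regions and were not tested. Regions within 75 kb of myeloid marker genes also lay mostly higher in dKO, 15 of 16 with a median of 1.36. Only 4 of those 16 had one of the markers as their nearest start, 3 higher and 1 lower. The part of the marker regions in the values at IRF genes was not tested.

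**Figure D1:**
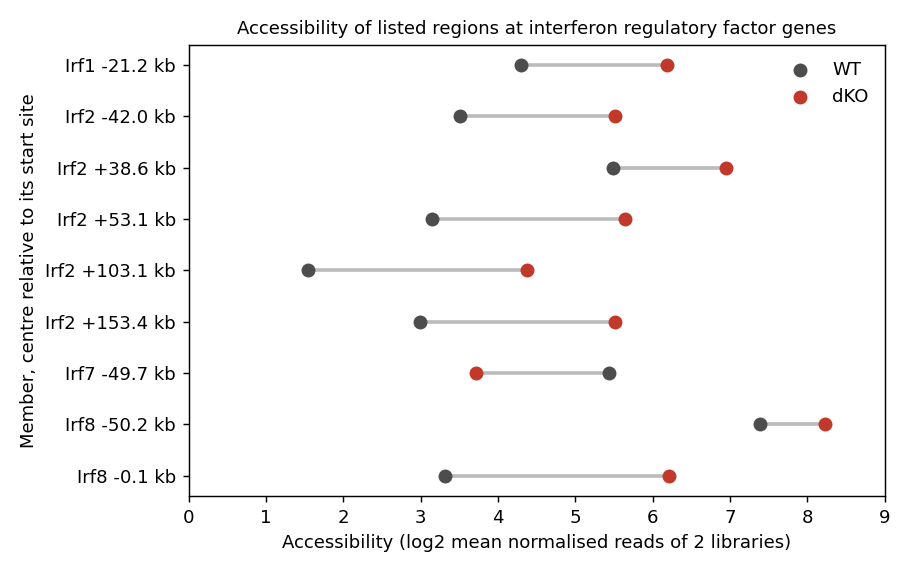
Accessibility of the 9 listed regions at IRF genes, as log2 mean normalised reads of the 2 libraries of WT (grey) and of dKO (red), 1 region per line and named by gene and by the distance of its centre from the gene's start. All regions lay higher in dKO except the one upstream of Irf7, and the table gives no spread for any point.

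Irf8 was the only member with a listed region over a start site, a feature shared by 4.41% of protein-coding genes. This 421-bp region (chr8:120736052-120736472) was centred 96 bp upstream of the start and ran into the first exon, which holds part of the 5′ UTR. Its log2 level was 3.31 in WT and 6.21 in dKO, or 9.9 and 74.0 normalised reads. The difference of 2.90 was a 7.46-fold higher accessibility in dKO and exceeded that of 93.2% of all listed regions. It was 2.19 with 8 normalised reads added to both groups and 1.92 with the median difference of all listed regions subtracted. A promoter that was among the weaker listed regions in WT was therefore above the median of listed regions in dKO. Its sequence was 69.8% G and C with 48 CpG dinucleotides, against a median of 50.5% G and C over the 9 regions.

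Both GAS matches at the Irf8 promoter lay inside the listed region, and 6.94% of all listed regions held such a match in their central 200 bases. In RefSeq promoters (mm10, 250 bases before to 50 bases after the start) a GAS match was present in 8.30% of 32851 promoters. Among 11 such promoters of the 8 members, 3 held one, at Irf1, Irf2 and Irf8. C/EBP, ISRE core and ETS-IRF composite matches were each found in 1 of the 11, at Irf2, against 18.5%, 8.56% and 8.24% of all promoters. AP-1, PU.1 and RUNX letters were found in 0 of the 11, against 5.20%, 3.20% and 5.27%. Neither C/EBP nor PU.1 letters were found in the central 200 bases of the Irf8 promoter region.

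The second region at Irf8 (chr8:120685783-120686531, 749 bp) lay 50.2 kb upstream of the start. It overlapped an exon of Gm33142, a transcript that the annotation marks as not experimentally verified, and the body of the read-through gene Gm20388. It was the most accessible of the 9 regions in both groups, with a log2 level of 7.39 in WT and 8.23 in dKO, or 167.7 and 300.2 normalised reads. Its WT level exceeded that of 92.2% of all listed regions. The difference of 0.84, or 1.79-fold, was the smallest of the 9 in size and lay below the median of all listed regions. A C/EBP match stood 10 bases from the centre of this region. The upstream element was thus open in both groups and differed little as a ratio, whereas the promoter was weak in WT and differed strongly as a ratio. In normalised reads the upstream element differed more, 167.7 against 300.2, than the promoter, 9.9 against 74.0.

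No region within the Irf8 gene downstream of the first exon, or in the 75 kb beyond its end, was listed. The next listed region downstream lay 431.0 kb away, with a log2 difference of 1.02. In the 5 Mb on each side of the Irf8 window, 22 of 83 listed regions (26.5%) were higher in dKO, with a median difference of -1.40. Both Irf8 regions therefore differed in the direction opposite to most of their neighbours, although the upstream element turned to -0.14 once the median difference of all listed regions was subtracted. On chromosome 8 as a whole, 209 of 467 listed regions (44.8%) were higher in dKO.

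Irf2 carried the largest number of regions, and all 5 were higher in dKO. A listed region was present in the window of 56.2% of protein-coding genes, with a median of 1 region, and 806 genes (3.67%) had 5 or more. At 309 genes (1.41%) there were 5 or more regions and all of them were higher in dKO. The body of Irf2 spans 107.7 kb, so its window of 257.7 kb was the longest of the 8, and no other protein-coding gene overlapped that window. Its own start site carried no listed region.

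The first Irf2 region (chr8:46697570-46697951) was 42.0 kb upstream of the start, in an intron of the long non-coding gene Gm16675. Its log2 level was 3.51 in WT and 5.51 in dKO, a difference of 2.00 or 4.00-fold. A C/EBP match and an AP-1 match lay within its central 200 bases.

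The other Irf2 regions followed along and beyond the gene body. The most accessible of them (chr8:46778083-46778631), in an intron 38.6 kb from the start, had a log2 level of 5.48 in WT and 6.95 in dKO, a difference of 1.47 or 2.77-fold. The next intronic region (chr8:46792715-46793008) lay 53.1 kb from the main start and 491 bp before the start of a shorter protein-coding transcript, Irf2-209. Its level was 3.14 in WT and 5.64 in dKO, a difference of 2.50 or 5.66-fold. This was the only one of the 9 regions with the PU.1 letters in its centre, and it also held the only ETS-IRF composite match there.

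The third intronic region (chr8:46842713-46842992), 103.1 kb from the start, had the lowest WT level of the 9, 1.54 against a limit of 1.43. Its dKO level was 4.37, which gave a difference of 2.83 or 7.11-fold. Since 2.9 normalised reads stood behind the WT value, this fold is the least precise of the set, and the difference was 1.39 with 8 normalised reads added to both groups. The last region (chr8:46892947-46893276) lay 45.5 kb past the end of the gene, with levels of 2.99 in WT and 5.51 in dKO, a difference of 2.52 or 5.74-fold. Both of these regions held an ISRE core match, the kind of sequence that IRF proteins bind. Around the Irf2 window, 7 of 14 listed regions within 5 Mb on each side were higher in dKO, with a median difference of 0.06.

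Per length of region, WT accessibility at Irf2 ran from 10.4 to 81.3 normalised reads per kb and dKO accessibility from 73.8 to 225.2. The 5 regions kept nearly the same order in both groups: the region at 38.6 kb was the most accessible and that at 103.1 kb the least accessible in each. The regions with the lower WT levels had the larger log2 differences as listed, but WT level and difference share the WT value, and with 8 normalised reads added to both groups this order was lost.

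**Figure D2:**
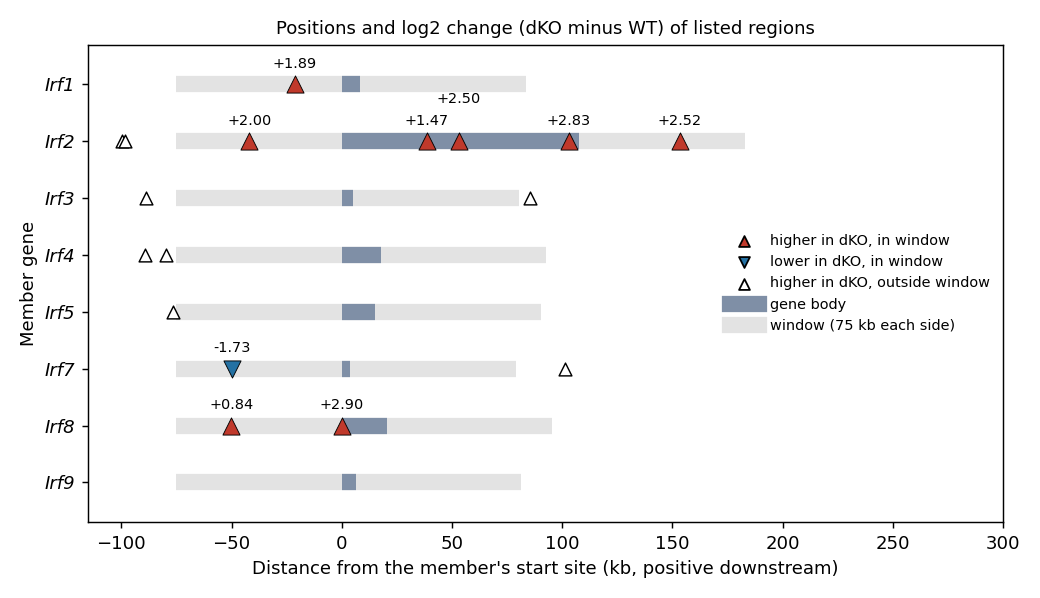
Positions of listed regions along the 8 IRF genes, in kb from each gene's start with positive values downstream; dark bars are gene bodies, light bars the windows of 75 kb on each side, and triangles listed regions with their log2 difference (dKO minus WT). Irf2 carried 5 regions that were higher in dKO, and open triangles mark the 8 regions that lay 75 kb to 100 kb from the gene bodies.

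Irf1, an activator that is itself induced by interferon, had 1 listed region (chr11:53748632-53749018). It was intergenic, 21.2 kb upstream of the start, and its nearest annotated start was that of the microRNA gene Mir7671 at 14636 bp. The log2 level was 4.29 in WT and 6.18 in dKO, or 19.6 and 72.5 normalised reads, a difference of 1.89 or 3.71-fold. A C/EBP match stood 13 bases from its centre. Within 5 Mb on each side of the Irf1 window, 36 of 57 listed regions (63.2%) were higher in dKO, close to the share over all listed regions.

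Irf7, the factor that amplifies type I interferon production, had the only region that was lower in dKO (chr7:141315973-141316310). It lay 49.7 kb upstream of Irf7 in an intron of Deaf1, 2709 bp from a Deaf1 start, and the Irf7 window held 11 other protein-coding genes. The log2 level was 5.44 in WT and 3.71 in dKO, or 43.4 and 13.1 normalised reads. The difference was -1.73, and dKO accessibility was 0.30 of that in WT. This region was the third most accessible of the 9 in WT and the least accessible in dKO. None of the 7 motifs was found in its centre. Of the listed regions within 5 Mb on each side of the window, 19 of 49 (38.8%) were higher in dKO.

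The absence of listed regions at Irf3, Irf4, Irf5 and Irf9 does not set them apart, given the share of protein-coding genes without one. Irf3 is the constitutively present partner of Irf7, Irf5 acts downstream of Toll-like receptors in macrophages, Irf4 serves in lymphocytes and alternatively activated macrophages, and Irf9 binds DNA in the response to type I interferon. The nearest listed region to Irf5 lay 76.4 kb upstream, just outside the window, with a log2 difference of 1.58. The nearest to Irf3 lay 79.5 kb downstream, 349 bp from a start of Rcn3, with a difference of 0.67. The nearest to Irf4 lay 79.3 kb upstream, close to Dusp22, with a difference of 0.84. The nearest to Irf9 was 155.7 kb downstream, with a difference of 1.57.

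The 75 kb limit decided which regions were counted. The farthest regions inside were those upstream of Irf8 and Irf7, at 49.8 kb and 49.5 kb from the gene bodies. Between 75 kb and 100 kb from the bodies lay 8 more regions at 5 genes, all higher in dKO by 0.67 to 2.09. Regions were given to a gene by distance, and no measurement linked them to it. Of the 9 regions, 4 overlapped the body of the member and 5 lay outside, and the nearest start of any transcript was the member's own for 2, the Irf8 promoter and the Irf2 region before Irf2-209.

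**Figure D3:**
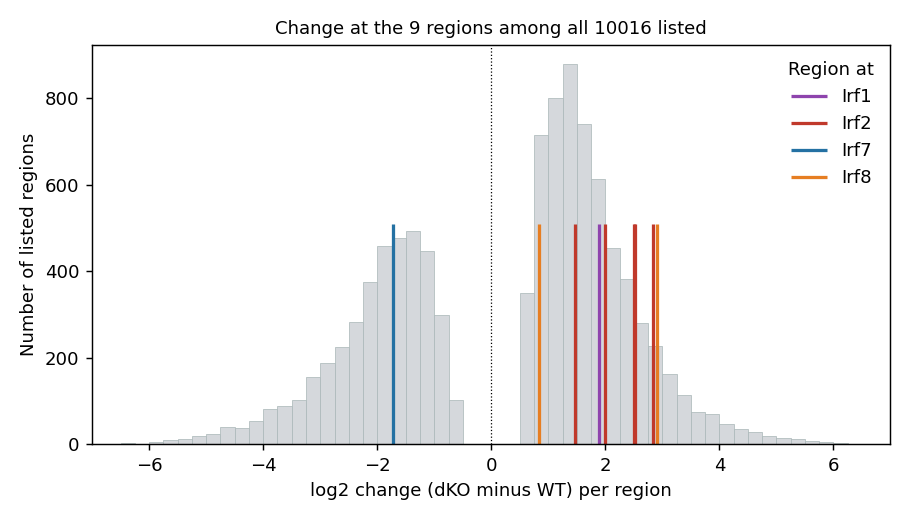
Distribution of the log2 difference (dKO minus WT) over all 10016 listed regions (grey bars, number of regions per bin), with the 9 regions at IRF genes as coloured lines. The gap about 0 arises because the table held only regions past the authors' cutoff, and the 8 higher regions lay between 0.84 and 2.90.

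Sequence matches at IRF genes were set against all listed regions over the same central 200 bases. A C/EBP match was present in 4 of the 9 regions, at Irf1, at Irf2 42.0 kb upstream and 38.6 kb downstream, and at Irf8 50.2 kb upstream. All 4 of these regions were higher in dKO, but so were 8 of the 9 regions, so their direction does not set them apart. The dKO cells lacked C/EBPα and C/EBPβ but, per the study's account, expressed C/EBPε. Over the table, C/EBP letters were found in 28.4% of regions, in 20.1% of those higher and in 40.8% of those lower in dKO. Searched over whole regions, the letters were in 4 of the 9 and in 42.9% of all listed regions. The sole lower region, at Irf7, had none. AP-1 letters were present in 2 of the 9 regions, both at Irf2, against 26.7% of the higher and 4.67% of the lower listed regions.

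The PU.1 letters were present in 1 of 9 regions against 9.22% of all, the ETS-IRF composite in 1 against 6.70%, and the ISRE core in 2 against 5.81%. RUNX letters were present in none of the 9 centres against 11.9% of all, and 9 regions are too few for this to count as a difference. A match shows only that these letters were there, and the study's ATAC-seq values do not show which protein was bound.

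Other genes of the interferon system were taken by the same window, in 4 lists that together held 100 regions, 68 of them higher and 32 lower in dKO. With the median difference of all listed regions subtracted, 52 were higher, 47 lower and the remaining region at 0, under the same limit of that median as for the IRF regions. The shares over all listed regions, 60.3% higher, 49.6% at least 2-fold higher and 35.9% at least 2-fold lower, stand as the background of each list, as do the 56.2% of protein-coding genes with a listed region. Of 18 sensors and kinases that act upstream of IRFs, 10 had a listed region, and 15 of these 24 regions (62.5%) were higher in dKO, with a median difference of 1.08. Both shares were near the background. Of the 10 genes, 4 had higher regions alone, 2 had lower regions alone and 4 had both. The largest upward difference as listed was at Tbk1, the kinase that phosphorylates Irf3 (chr10:121546183-121546423): the level was 0.38 in WT, under the limit, and 4.63 in dKO, at least 9.19-fold higher. A second Tbk1 region, within the gene 3.6 kb from its start (chr10:121583087-121583368), was above the limit in both groups, at 1.77 in WT and 5.98 in dKO, a difference of 4.21 or 18.5-fold. The largest downward difference was at Ticam1, the adaptor of Toll-like receptor 3 (chr17:56210635-56211025), with levels of 5.29 in WT and 3.17 in dKO and a difference of -2.12, 66.0 kb from its start and nearest to Dpp9.

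Of 13 interferon receptors, Janus kinases, STATs and inhibitors of this signalling (SOCS genes and Usp18), 11 had a listed region, and 24 of these 28 regions (85.7%) were higher in dKO, with a median of 1.25. Of the 11 genes, 8 had higher regions alone and 3 had both kinds. The largest upward difference was at Stat2, the partner of Irf9 (chr10:128256332-128256676), from 2.07 in WT to 6.91 in dKO, a difference of 4.84. This region lay 14.1 kb upstream of the start of Stat2 and was nearest to Apon. The largest downward difference was within Ifnar2, a chain of the type I interferon receptor (chr16:91386849-91387401), from 6.14 to 4.41, a difference of -1.73.

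Of 13 DNA-binding partners and antagonists of IRFs, 10 had a listed region, and 19 of these 23 regions (82.6%) were higher in dKO, with a median of 1.22. Of the 10 genes, 7 had higher regions alone, 2 had both kinds and 1, Tcf3, had a lower region alone. Prdm1, which encodes the repressor BLIMP1 that binds sites like those of IRFs, had a region in its body (chr10:44475466-44475764) at 2.56 in WT and 4.96 in dKO, a difference of 2.40. The largest downward difference was at Tcf3 (chr10:80371351-80372029), from 7.21 to 5.44, a difference of -1.77, but 62.0 kb from its start and nearest to Gm15123.

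Chromosome 10 was higher in dKO at 82.0% of its listed regions. It held 8 of the regions around receptors, kinases and STATs, all higher, 5 of those around sensors, all higher, and 4 of those around partners, of which 3 were higher. Without that chromosome, 16 of 20, 10 of 19 and 16 of 19 regions were higher in these 3 lists. For the sensors the share without chromosome 10 was below the 60.3% of all listed regions. None of the 9 regions at IRF genes lay on chromosome 10. The part of that chromosome in the lists' medians was not tested.

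Of 25 interferon-stimulated genes, 16 had a listed region, and 10 of these 25 regions (40.0%) were higher in dKO and 15 lower, with a median of -1.54, against 60.3% higher among all listed regions. Of the 16 genes, 3 had higher regions alone, 8 had lower regions alone and 5 had both. All 15 of the lower regions were at least 2-fold lower, and 7 of the others were at least 2-fold higher. These counts were not tested. The largest downward difference was at Oas1a, an oligoadenylate synthetase that senses double-stranded RNA (chr5:120974430-120974861), from 5.99 in WT to 2.17 in dKO, a difference of -3.82. This region was 67.1 kb from its start and nearest to Gm42656. The largest upward difference was at Ifitm3, which blocks viral entry (chr7:140967808-140968320), from 4.15 to 6.61, a difference of 2.46, with Ifitm1 nearest. Only 2 of the 25 regions had an interferon-stimulated gene of the list as their nearest start, 1 higher and 1 lower, so that these counts rest on distance.

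**Figure D4:**
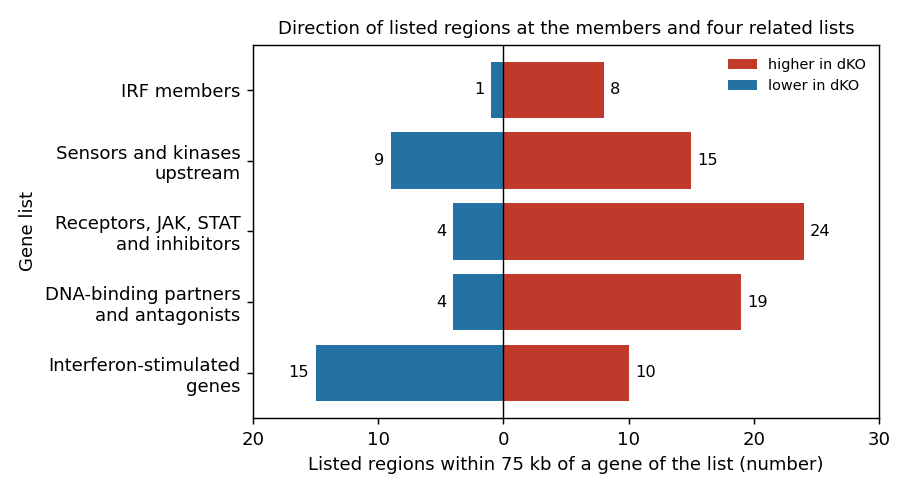
Numbers of listed regions within 75 kb of the genes of each list that were higher (red, to the right) or lower (blue, to the left) in dKO. The IRF members had 8 higher and 1 lower, and the interferon-stimulated genes 10 higher and 15 lower.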

How the data were processed

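ATAC-seq libraries of 3 groups with 2 replicates each were described in the labels. Per the study's methods and the submitters' processing notes, the authors preprocessed reads with PiGx, aligned them to mm10 with Bowtie2, called peaks with MACS2 and compared groups with DiffBind 2.14.0. Handling of duplicate reads and of the Tn5 offset was not given in the sources used here; kept duplicates would raise counts at strongly amplified regions. The authors deposited log2 means of normalised reads per region over both groups, over WT and over dKO. Their fold change, p-value and false discovery rate columns were not used. The 2 processed files held 1 distinct table, without dKO-LAP* values.

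The difference was the dKO log2 mean minus the WT log2 mean. The overall mean matched the average of both group means to within 0.01. Tests over libraries had been planned but the table has no value per library. Regions were assigned with GENCODE M21 genes, and motifs were searched on both strands, with Python 3.11.15, pandas 2.3.3, numpy 2.4.6 and pysam 0.24.0; plots used matplotlib 3.10.9. The window rule and motif search were tested on simulated data. Every member and region at it was named or counted, and of each pathway list the regions of largest upward and downward difference were named. Members and lists were chosen with earlier results of these data known. Alternatives were other windows, the nearest start, a 2-fold filter, a filter on low levels, 8 added reads, centring and whole-region motif searches.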

Additional observations from a re-analysis of the deposited data

How the results depend on the processing

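No paired analysis was possible because replicates were already averaged within each group, and leaving out a replicate could not be run for the same reason. Of the recomputed summary values, 43 stayed within the limits set for a change (1.5 times for a count and 0.1 on the log2 scale for a median) and 27 did not. With a window of 10 kb, 4 regions at 2 members were left, 4 higher and 0 lower, with a median of 2.67. With 100 kb there were 17 regions at 7 members, 16 of them higher, with a median of 1.50. By the nearest start there were 2 regions at 2 members, 2 higher and 0 lower, with a median of 2.70. The median was 2.25 over regions changed at least 2-fold and 1.47 with 8 normalised reads added. Subtracting 0.98, the median of all listed regions, gave a median of 1.02 and 2 lower regions. The region 50.2 kb upstream of Irf8 turned from 0.84 to -0.14, although as listed it was higher in dKO. The interferon system lists held 100 regions, 68 higher and 32 lower; 26, 21 and 5 were left with 10 kb, and 27, 23 and 4 by the nearest start, while subtracting the median left 52 higher and 47 lower. In whole regions, RUNX, ETS-IRF composite and GAS matches were each found in 3 of 9, against 19.3%, 13.8% and 14.5% of all listed regions searched whole. The filter on low levels kept every summary at the genes within those limits. Depth limits the region of Irf2 at 103.1 kb, whose WT level was just above 3 reads per library.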

Other observations

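Marker genes of myeloid cells were read by the same window. Of 16 listed regions at 7 genes (Kit, Itgam, Fcgr3, Mpo, Elane, Csf1r and Ly6g), 15 were higher in dKO and 1 was lower. The median difference was 1.36, against 60.3% higher and a median of 0.98 over all listed regions. Only 4 of the 16 had one of these markers as their nearest start, 3 higher and 1 lower, so that the counts rest on distance. They were not tested. Kit, the receptor of stem cell factor and a marker of immature cells, had a region in its body at 1.26 in WT, under the limit of 3 reads per library, and at 4.52 in dKO, at least 8.51-fold higher. Csf1r, the receptor for the macrophage growth factor, had 3 regions in its body with differences of 1.08 to 2.55. Itgam, which encodes the integrin chain CD11b of mature myeloid cells, had 4 regions with differences of 0.71 to 2.70. Only that of 1.27 had Itgam as its nearest start, and that of 2.70 lay 66.8 kb from the start, nearest to Itgax. By the study's account, dKO cells had lower Csf1r expression and reduced CD11b staining. Higher accessibility at these 2 genes thus does not stand for higher expression. Mpo, an enzyme of granules, had 1 region lower by -1.13 and 1 higher by 0.95.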
